A study of Homo sapiens with 4 samples.

Results

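The EGR and AP-1 immediate early factors are described here as 10 genes, EGR1, EGR2, EGR3, FOS, FOSB, FOSL1, FOSL2, JUN, JUNB and JUND. They were found by gene name among the 17778 named genes of an expression array, on which they had 11 probes of 26423, with 2 for JUNB and 1 for each of the others. The genes were picked after earlier results on the same arrays had shown EGR1 and FOS higher with berberine. Differences between the groups in these 10 genes are therefore given as a description and not as a test.

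The labels name HepG2 cells, an established human liver cancer line, grown in DMEM with serum. The 2 control samples had no berberine, and the 2 treated samples had 26.95 µM berberine, a plant alkaloid, for 24 hours. A free-text field of the same samples instead speaks of MDI-induced differentiation, of 48 hours and, for the treated ones, of 13.47 µM, and both accounts were not reconciled. Nothing in the labels says that the samples of a group came from separate cultures, so the spread between them may be technical.

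EGR proteins are zinc finger transcription factors that bind GC-rich DNA. FOS and JUN proteins share a leucine zipper through which they pair to form AP-1, a factor that binds the promoters and enhancers of many growth and stress genes. Genes of both families are known as immediate early genes, since growth factors and stress raise their transcription through the ERK, JNK and p38 kinases without new protein synthesis, and their mRNAs are usually short-lived. In liver they are known for their induction after partial hepatectomy and injury.

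The array's probe names are those of a mouse design, while the labels give human cells, so each value is the signal of a mouse probe under a gene name. The 543 probes named OLFR, for mouse olfactory receptors, served as a reference for signal without a matching transcript. On the scale used below, log2(intensity + 1) after quantile normalization, their median lay between 6.09 and 6.11 and their 95th percentile between 9.27 and 9.40 over the 4 samples. Median deposited intensities were 62 to 90 per sample, and 269 probes of control 2 were below 0, against 0 to 11 in the other samples. Of 13 measured hepatocyte markers, 0 had a mean above the olfactory receptor genes' 95th percentile of 9.24, the brightest being APOA2 at 8.56, and ALB read 8.35 and AFP 4.75. Of 12 adipocyte markers 2 did, CD36 at 10.33 and SLC2A4 at 9.40, and of 9 fibroblast markers 0 did, the brightest being ACTA2 at 8.26, with COL1A1 at 5.31 and COL3A1 at 4.79 among 6 below the olfactory receptor median. Over all named genes 9.15% had a mean above 9.24, and 4 of the 13 hepatocyte markers lay below the olfactory receptor median. Beside that share, and with probes of mouse names, these counts cannot decide whether the hepatocyte label holds. The summed intensity of the hepatocyte markers was 1744 to 1752 in the controls and 1371 to 1709 with berberine, that of the fibroblast markers 736 to 785 and 856 to 884, and that of the adipocyte markers 2885 to 4502 and 2546 to 3512. The hepatocyte and fibroblast sums thus did not overlap between the groups, as was so for 45.0% of all genes taken singly. The hepatocyte sum was lower with berberine, while the median log2 difference (berberine minus control) of its markers was 0.08. For the fibroblast markers the sum was higher and the median difference -0.06. A shift shared by the markers of either list was thus not seen, and the part of these sums in the results below was not tested.

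EGR1 carried the widest difference of the members. As deposited, the intensity of its probe was 823 in control 1, 630 in control 2, 14131 in berberine 1 and 15864 in berberine 2. On the log2 scale these were 9.48, 9.30, 13.98 and 13.93, a rise of 4.56 (SE 0.12), or 23.6-fold. The controls sat at the edge of the olfactory receptor range, control 1 above its 95th percentile and control 2 below it, and both berberine samples lay above all 543 olfactory receptor probes, of which the brightest in a berberine sample read 12.03. Among the 17778 genes EGR1 ranked 1 by rise. Since RNA of whole cultures was measured, more cells with the transcript and more transcript per cell cannot be told apart, for EGR1 or any gene below.

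Neither EGR2 nor EGR3 came near this size. EGR2, best known for its role in hindbrain and Schwann cell development, had a probe in the dim range, with intensities of 40 and 1 in the controls and 39 and 46 in the berberine samples, each in the order 1, 2. Its log2 values were 4.93, 3.91, 5.15 and 5.43, below the olfactory receptor median in every sample, and its difference of 0.87 (SE 0.39) depended on control 2. Without that sample it was 0.36, and without control 1 it was 1.39. EGR3, known from muscle spindle development and lymphocytes, read 8.32 and 8.32 in the controls and 8.22 and 8.14 with berberine. Both berberine values lay below both controls, by 0.14 on average (SE 0.11), and the probe stood between percentiles 84.9 and 86.0 of the olfactory receptor probes.

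FOS followed EGR1 in the size of its rise, from a dim start. The intensity was 51 in control 1, 23 in control 2, 194 in berberine 1 and 230 in berberine 2, and its log2 values 5.44, 5.38, 7.80 and 7.80. The difference was 2.40 (SE 0.11), or 5.26-fold, rank 12 among all genes by rise. Both controls lay under the olfactory receptor median, at percentiles 30.9 and 29.1 of those probes, and both berberine samples at percentiles 81.4 and 80.7, still inside their range. With 50 added to each intensity in place of 1 the difference was 1.57, so its size rests on control values near background.

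FOSB and FOSL1 had small differences. FOSB, a partner of JUN like FOS, read 6.42 and 6.36 in the controls and 6.59 and 6.65 with berberine, a difference of 0.24 (SE 0.11). FOSL1, or FRA1, a FOS relative without the transactivation domain of FOS, read 9.80 and 9.83 against 9.74 and 9.73, a difference of -0.08 (SE 0.11). Its probe was above the olfactory receptor 95th percentile in all 4 samples. FOSL2, or FRA2, had the widest spread within a group among the brighter probes, with 8.19 in control 1 and 9.19 in control 2, against 9.64 and 9.39 with berberine. Both berberine values lay above both controls, by 0.83 on average (SE 0.38), but the difference was 0.33 without control 1 and 1.32 without control 2.

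Of the JUN genes, JUNB had the largest difference, in 1 of its 2 probes. JUNB is a JUN relative that activates transcription less strongly than JUN at many AP-1 sites. Its brighter probe had intensities of 199 and 139 in the controls and 317 and 392 in the berberine samples, or log2 values of 7.45, 7.26, 8.54 and 8.60. The berberine samples lay above the controls by 1.21 (SE 0.12), or 2.32-fold. Its dimmer probe read 5.40, 5.10, 5.40 and 5.29 on the log2 scale, so that its groups overlapped, with a difference of 0.10 (SE 0.16), and the mean of both probes gave 0.66. The dimmer probe lay under the olfactory receptor median in all 4 samples, and the brighter one between percentiles 72.9 and 90.1.

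JUN, the main partner of FOS, was measured by a probe above the olfactory receptor 95th percentile in all 4 samples. It read 10.17 and 9.89 in the controls and 10.12 and 9.98 with berberine. These groups overlapped, and the difference of 0.02 (SE 0.15) turned to -0.24 on the deposited values and to -0.35 after median centring. JUND, which is known for steady expression in resting cells, read 9.36 and 9.70 against 9.76 and 9.71. Its difference of 0.21 (SE 0.16) fell to 0.03 without control 1, was 0.38 without control 2, and turned to -0.02 as deposited and -0.13 with median centring.

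**Figure D1:**
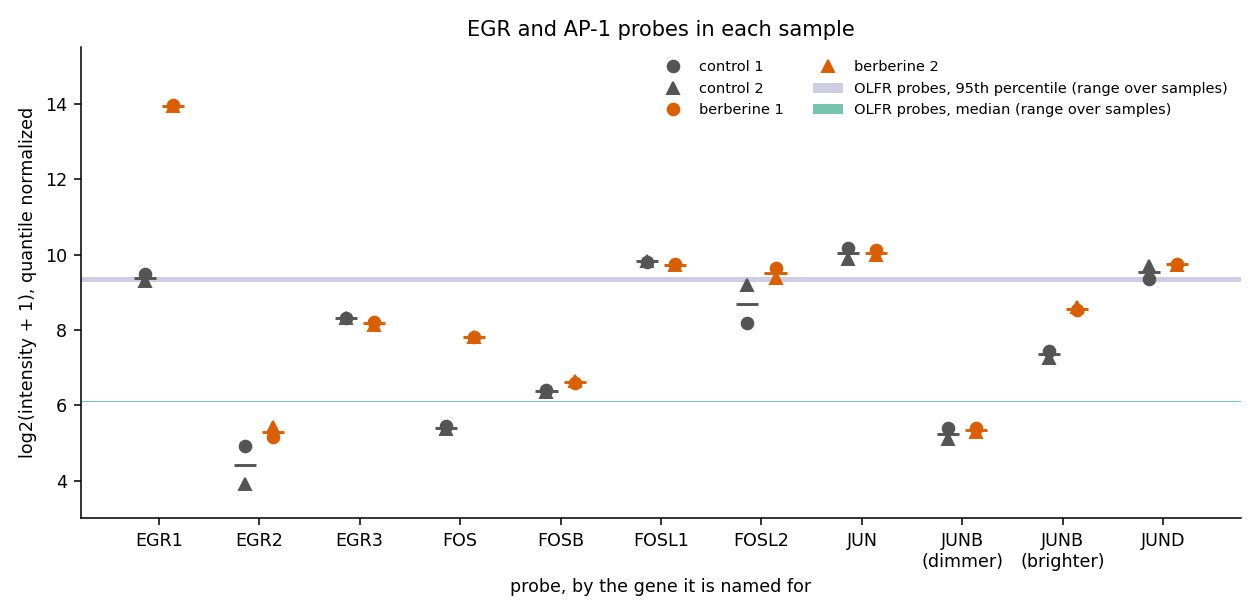
Each point is a probe's log2(intensity + 1) in 1 sample after quantile normalization, with horizontal bars for the mean of the 2 samples of a group and bands for the median and 95th percentile of the 543 olfactory receptor probes. EGR1 goes from the upper band to 13.95 with berberine, FOS from 5.41 to 7.80 and the brighter JUNB probe from 7.36 to 8.57, while the JUN points overlap.

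Set side by side after quantile normalization, 7 of the 10 genes had both berberine values above both controls, 2 had both below and JUN overlapped. As deposited, EGR2, FOSB and JUND overlapped too, FOSB with intensities of 98 and 63 in the controls against 89 and 105 with berberine. The deposited JUND intensities were 754 and 836 against 728 and 841. Over all genes after quantile normalization, 21.7% had both berberine values above both controls and 23.3% both below, 45.0% together. The groups were apart for 43.5% of the olfactory receptor probes. The median difference over the 10 genes was 0.53, against -0.0091 over all genes. In limma's fit over all genes, 9 genes of 17778 (0.0506%) had a Benjamini-Hochberg adjusted p under 0.05, among them EGR1 and FOS, and the other 8 members were not called. When the prior variance was allowed to vary with signal (called the trend fit below), 260 genes (1.46%) were called, among them EGR1, FOS and JUNB. The called members were all higher with berberine, as were 0.045% of all genes in the first fit and 0.962% in the trend fit. Nothing is read from these counts, since the contrast itself led to the choice of the genes. No gene was called in the first fit without control 1, control 2, berberine 1 or berberine 2 (0 in each; an unadjusted limma p below 0.05 was reached by 1983, 2763, 1312 and 1370 genes), while the EGR1 difference stayed between 4.48 and 4.65 and the FOS difference between 2.36 and 2.43. Median centring also left 0 calls, where the unadjusted limma p of 2247 genes was below 0.05.

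The olfactory receptor probes gave the range of differences seen at probes taken to have no matching transcript, which was not checked by sequence. Their differences ran from -1.77 to 1.81, and the 95th percentile of their size was 0.65. After quantile normalization EGR1 and FOS exceeded every such probe, JUNB's brighter probe lay at percentile 98.9 of their sizes, and EGR2 and FOSL2 at percentile 97.4. Since the members were picked with the rise of EGR1 and FOS known, these places are a description and not a test. JUN, JUND, FOSB, FOSL1, EGR3 and the dimmer JUNB probe all lay under the 60th percentile, that is within the bulk of that range. Of the 11 probes, 2 were above the olfactory receptor 95th percentile of signal in all 4 samples, 3 in some samples and 6 in none.

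**Figure D2:**
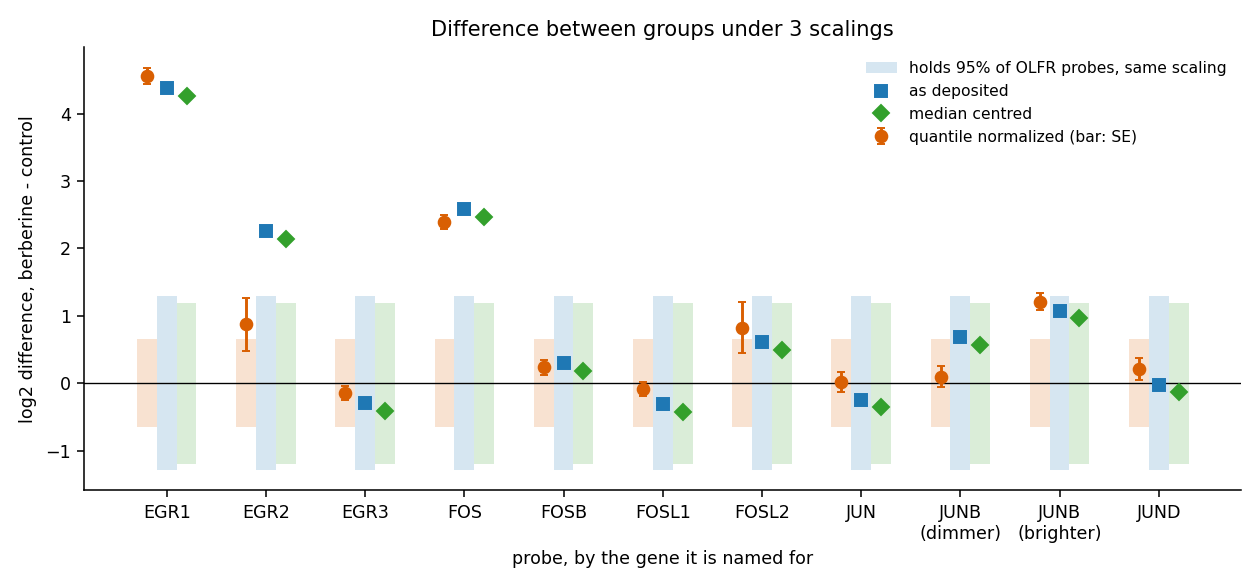
Differences (berberine minus control, log2) of each probe after quantile normalization, as deposited and after median centring, with shaded bands that hold 95% of the olfactory receptor probes under the same scaling, and bars for the SE of the quantile normalized difference. EGR1, EGR2 and FOS lie above the band of each scaling, the brighter JUNB probe and FOSL2 above that of the quantile normalized values alone, and JUN and JUND change sign.

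The scalings bear on the smaller differences. The median difference of all genes was -0.0091 after quantile normalization, 0.08 as deposited and -0.03 with median centring. Under all 3, EGR1, EGR2, FOS, FOSB, FOSL2 and JUNB were positive, 6 of 10, and EGR3 and FOSL1 negative. EGR1 was 4.38 as deposited and 4.26 with median centring, FOS 2.59 and 2.47, and JUNB 1.08 and 0.97. The dimmer JUNB probe was at 0.69 and 0.57. The olfactory receptor probes also spread more in these settings, the 95th percentile of their differences being 1.29 as deposited and 1.19 with median centring, an alternative added after the data were seen. EGR1 still exceeded all of them, EGR2 and FOS lay at percentiles 99.6 and 99.8 in both, and the brighter JUNB probe was inside their range at percentiles 92.6 and 92.5. EGR2 was at 2.26 and 2.15 in these settings, where the intensity of 1 in control 2 was not lifted by the normalization.

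**Figure D3:**
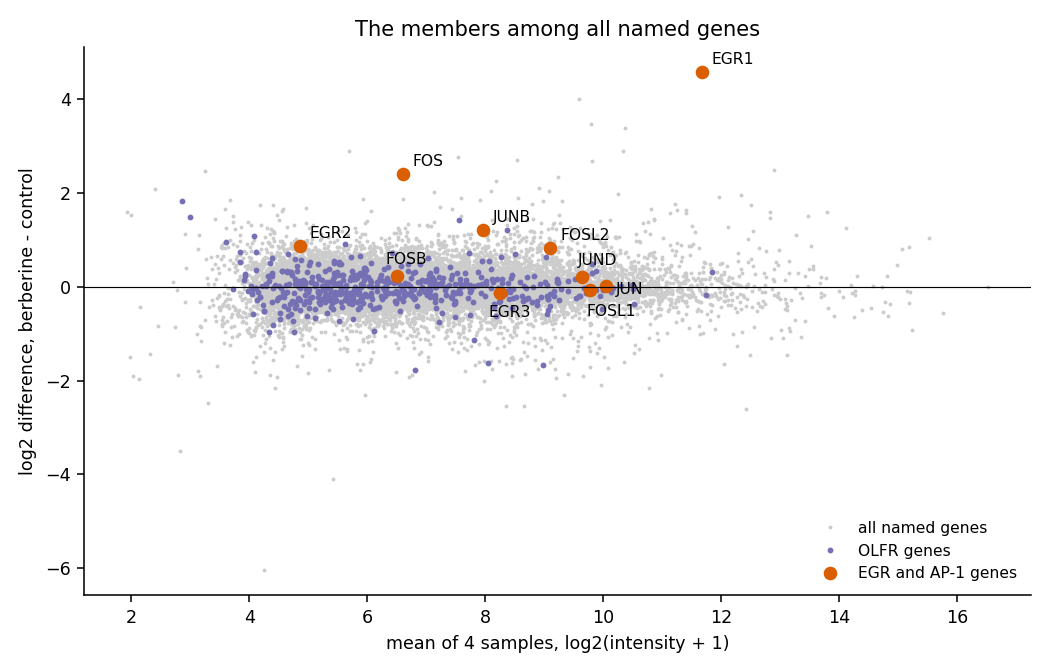
Difference between groups against mean signal for all 17778 named genes, with the olfactory receptor genes and the 10 members marked. EGR1 stands at the top at 4.56, FOS at 2.40 among dim genes, and the other members between -0.14 and 1.21.

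The human promoters of the genes that were highest with berberine are shown with that of JUN, whose groups overlapped, because sequence motifs for the kinase-driven factors SRF and CREB are known to control immediate early genes. RefSeq promoters (GRCh38.p14) were matched by symbol for 8 members, EGR3 and FOSL1 being the others. The 250 bases before the start of transcription are printed 5′ to 3′, with capitals for a CArG box (the SRF site), for TGACG or its reverse complement CGTCA (the core of the cAMP response element) and for TGACNTCA (the AP-1 and CREB type site). The sequences are human because the labels give human cells. The probes' mouse names and the differentiation field leave it unsettled which RNA was hybridised, and so whether these promoters are the relevant ones. The printed windows are EGR1 at chr5:138465229-138465478 (plus strand), FOS at chr14:75278578-75278827 (plus), JUNB at chr19:12791236-12791485 (plus) and JUN at chr1:58784048-58784297 (minus).
EGR1: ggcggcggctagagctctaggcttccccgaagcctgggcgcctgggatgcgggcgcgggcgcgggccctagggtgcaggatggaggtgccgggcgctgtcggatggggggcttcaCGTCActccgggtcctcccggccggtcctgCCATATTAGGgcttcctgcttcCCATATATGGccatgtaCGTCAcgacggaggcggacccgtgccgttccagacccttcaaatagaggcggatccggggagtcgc
FOS: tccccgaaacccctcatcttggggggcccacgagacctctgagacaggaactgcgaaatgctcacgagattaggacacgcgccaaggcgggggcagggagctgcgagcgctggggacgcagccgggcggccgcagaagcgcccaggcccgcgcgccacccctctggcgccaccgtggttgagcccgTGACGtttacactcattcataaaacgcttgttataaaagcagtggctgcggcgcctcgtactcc
JUNB: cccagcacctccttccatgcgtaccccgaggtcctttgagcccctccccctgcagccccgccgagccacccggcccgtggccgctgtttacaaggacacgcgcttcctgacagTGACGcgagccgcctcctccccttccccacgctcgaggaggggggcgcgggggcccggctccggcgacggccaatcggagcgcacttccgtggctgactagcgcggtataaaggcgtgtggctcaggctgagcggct
JUN: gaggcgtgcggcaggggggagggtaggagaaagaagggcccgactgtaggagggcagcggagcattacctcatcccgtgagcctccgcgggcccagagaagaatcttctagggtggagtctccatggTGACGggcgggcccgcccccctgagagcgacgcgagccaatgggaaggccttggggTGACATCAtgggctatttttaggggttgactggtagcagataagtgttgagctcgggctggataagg

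The EGR1 window held 2 CArG boxes, beginning 105 and 83 bases before the start, and 2 CGTCA cores, beginning 135 and 66 bases before it. FOS held 1 TGACG core at 64 bases and JUNB 1 at 137 bases. JUN held TGACG at 123 bases and TGACATCA at 67 bases. Searched on both strands in the same 250 bases of all 35116 promoters of the table, TGACG was found in 21.2% and the CArG box in 1.16%. All 8 matched members had TGACG in at least 1 promoter, those with a small difference included, or 8 of their 10 promoters. Of all genes with a promoter searched, 24.9% had TGACG in at least 1 and 1.44% a CArG box. EGR2 was the other member with a CArG box within these 250 bases, in 1 of its promoters. Bases further upstream were not searched, so a CArG box of FOS or another member there would not have been found. TGACNTCA, which holds TGACG where N is G, was found in JUN and JUND, in 8.29% of all genes and in 6.87% of all promoters. GCGNGGGCG, an EGR type site, was found in EGR1 itself, in 10.1% of genes and in 8.41% of promoters. TGANTCA, the core AP-1 site, was found in 0 members, 8.06% of genes and 6.57% of promoters. These are matches of letters and not measured sites, and TGACG was present both in the genes that were highest with berberine and in JUN.

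Genes around these factors were then compared in 7 lists, for which the members themselves were left out. Of the 129 genes measured, 0 passed the threshold in limma's fit without a trend, where the unadjusted limma p of 35 was below 0.05 (that of 13.0% of all genes was) and the smallest adjusted p was 0.0688. In the trend fit 14 passed, 13 higher and 1 lower, and of these 5 had means above 9.24 and 9 did not. The shares over all genes were 0.0506% in the first fit and, in the trend fit, 0.962% higher and 0.501% lower. The lists were written with earlier results of these arrays known, and some of their genes had appeared there. Counts in the lists below are therefore a description, to be set beside these shares.

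Few of the upstream kinases, and none of the factors at the serum response element, passed in either fit. Of 24 genes of the ERK, JNK and p38 cascades, 0 passed without the trend (9 at an unadjusted limma p under 0.05) and MAPK13, a p38 kinase, was higher in the trend fit. It read 8.53 and 8.42 in the controls and 9.30 and 9.51 with berberine, a difference of 0.93. MAP2K4, a kinase that activates JNK, differed by 0.45 (limma adjusted p = 0.289). Of 8 genes of the list with SRF, ELK factors and coactivators, which also held TCF7L2, a Wnt pathway factor not known as an SRF partner, 0 passed in either fit and 0 had an unadjusted limma p under 0.05, SRF itself being at 0.54 with a second probe at 0.15, and MKL2, an SRF coactivator, at 0.15 with a second probe at -0.25. The median of the kinases was -0.03, with 0.12 as deposited and 0.01 after median centring, and that of the list with SRF -0.08, with 0.18 and 0.07.

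Among partners of both families, ATF4 was the 1 gene that passed, in the trend fit. Of 19 AP-1 relatives, 0 passed without the trend (3 at an unadjusted limma p under 0.05), and ATF4, the effector of the integrated stress response, was at 0.99. MAFK, a small MAF protein, was at 0.54 (limma adjusted p = 0.233). Of 10 EGR partners and cofactors 0 passed in either fit (4 at an unadjusted limma p under 0.05). SP3, which binds GC boxes that overlap EGR sites, read 4.70 and 5.29 in the controls and 6.99 and 6.72 with berberine, a difference of 1.86 (limma adjusted p = 0.142). NAB2, a corepressor that EGR1 is known to induce, read 7.20 and 6.81 against 7.92 and 7.98, a difference of 0.94 (limma adjusted p = 0.217), while its second probe was at 0.06. The median of the AP-1 relatives was 0.02, with 0.33 as deposited and 0.22 after median centring, and that of the EGR partners 0.02, with 0.07 and -0.04.

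Other immediate early genes held the most calls of the trend fit, 6 of 27, all higher, against 0.962% of all genes. Without the trend 0 passed, and 9 had an unadjusted limma p under 0.05, as did 13.0% of all genes. PLK3, a stress-responsive kinase, read 11.33 and 11.39 in the controls and 13.37 and 13.25 with berberine, a difference of 1.94 (SE 0.11). IER5, which regulates the heat shock factor HSF1, read 6.65 and 6.65 against 8.51 and 8.55, a difference of 1.88, and its second, dim probe was at 0.01. The others were ZFP36L1, an mRNA decay factor, at 1.59, IER3 at 1.66, the phosphatase DUSP5 at 1.14 and PLK2 at 0.98. IER5, IER3, DUSP5 and PLK2 had means below 9.24. Of the 27 genes 13 had both berberine values above both controls, 3 had both below and 11 overlapped. Over all genes 21.7% lay above and 23.3% below. As the list was written with earlier results of these arrays known, nothing is read from these counts. The 3 lower genes were KLF10 at -0.39, DUSP2 at -0.32 and NR4A1 at -0.10. The list median was 0.14, with 0.30 as deposited and 0.19 with median centring.

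Among known targets a few genes passed the trend fit, in which 0.962% of all genes were called higher and 0.501% lower. Of 20 EGR1 targets 0 passed without the trend (8 at an unadjusted limma p under 0.05) and 3 were higher in the trend fit. VEGFA, the angiogenic growth factor, read 10.37 and 10.48 in the controls and 12.06 and 12.08 with berberine, a difference of 1.64 (SE 0.11). TGFB1 read 9.28 and 9.21 against 10.66 and 10.61, a difference of 1.39, and GADD45A was at 1.11. Of 28 AP-1 targets 0 passed without the trend (6 at an unadjusted limma p under 0.05), while VEGFA, TGFB1, TIMP1 (a matrix protease inhibitor) at 1.61 and BCL2L11, the proapoptotic protein BIM, at 1.00 were higher in the trend fit. PLAU, the urokinase protease and a classic AP-1 target, was the gene that was lower there, with 8.66 and 9.30 in the controls and 7.18 and 7.29 with berberine, a difference of -1.75. The median of the EGR1 targets was 0.05, with 0.29 as deposited and 0.18 after median centring, and that of the AP-1 targets 0.02, with 0.11 and -0.0034. TIMP1, BCL2L11 and PLAU had means below 9.24.

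**Figure D4:**
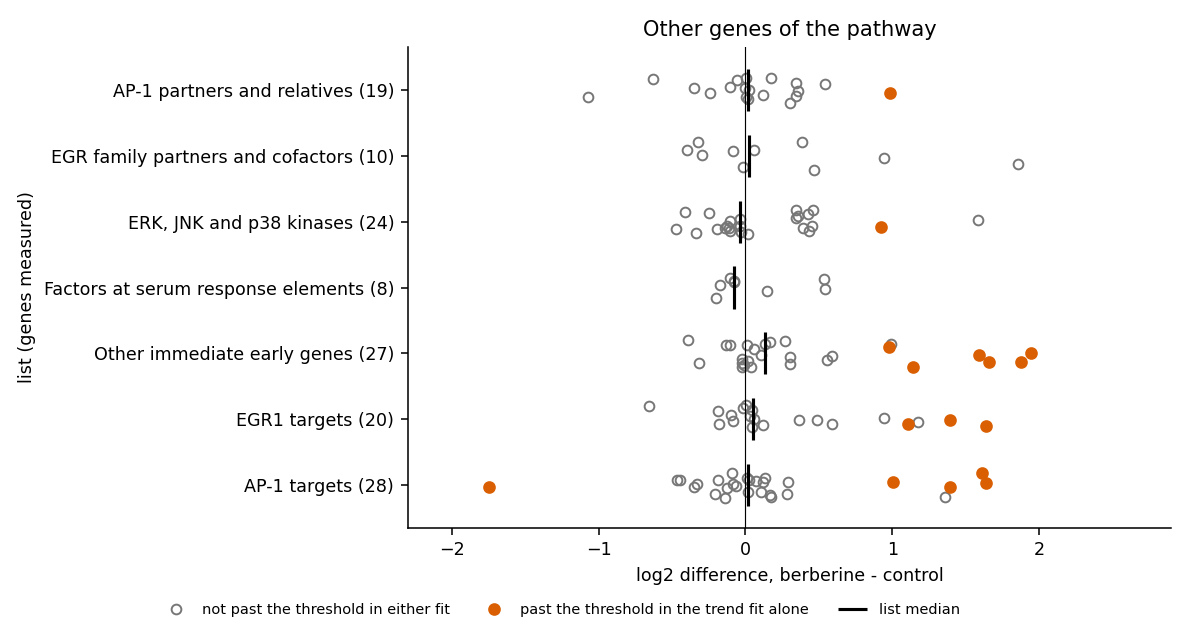
Each point is 1 gene's difference (berberine minus control, log2), by list, with vertical bars at the list medians. Filled points are the genes called in the fit with an intensity trend, of which PLAU is the 1 on the left, at -1.75. A gene on 2 lists is drawn in both.

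The genes whose 4-sample profile was most like that of EGR1 were sought among the other 1625 genes with means above 9.24, by the Euclidean distance between log2 values centred on each gene's mean. RN7SK, the small nuclear RNA that binds P-TEFb, was nearest at a distance of 0.57, followed by RNU2 (U2 snRNA) at 1.10, the antiproliferative gene BTG1 at 1.19 and the cytokine LIF at 1.70. The median distance was 4.61. RN7SK read 7.67 and 7.51 in the controls and 11.56 and 11.61 with berberine, and LIF 9.15 and 8.64 against 11.73 and 11.82. All 4 passed the signal limit through the berberine samples, since their controls lay below 9.24, and of the members FOSL1, JUN and JUND alone could be found beside EGR1. The likeness uses the contrast for which EGR1 was chosen and is a description.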

How the data were processed

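Cy5-labelled amplified RNA was hybridised to one-colour arrays, 1 per sample, per the labels' protocols. The table the authors deposited gives 1 whole-number intensity per probe and sample, not on a log scale, over 26423 probes. How it was scanned, background-corrected and normalized is not given in the sources used. The number of arrays limits the precision. The platform annotation named 20377 probes with 1 gene symbol, 0 with several, and left 6046 unnamed. Intensities were quantile normalized, values below 0 set to 0, and log2(value + 1) taken. A gene was represented by its probe with the highest mean. All 17778 genes were fitted in R 4.3.3 with the limma package, version 3.58.1 (linear model by group, eBayes with no trend, 2 residual degrees of freedom, 2-sided, Benjamini-Hochberg threshold 0.05). Differences and SEs come from this fit, and those of the second JUNB probe from a fit of every probe. The code was also run on simulated normal values whose noise did not depend on signal, which cannot show its error rate on these arrays. An exact permutation test of 2 against 2 cannot go below 0.333. Promoter motifs and figures used Python 3.11.15 and matplotlib 3.10.9. The members, lists and tests were chosen with earlier results of these data known. Named were all members, of each list the called genes, or with none the 2 of smallest p, the brightest marker of each cell type, and the 4 profiles nearest to EGR1. The other genes of the trend fit, and ALB, AFP, SLC2A4, COL1A1, COL3A1, KLF10, DUSP2 and NR4A1, were named after their values were seen. Alternatives were other scalings, a pseudocount of 50, a filter on the dimmest 30% of genes, an intensity trend, other treatment of probes, the replicate number as a block and each sample left out.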

Additional observations from a re-analysis of the deposited data

How the results depend on the processing

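Over all genes, 9 passed the limma threshold. The count was 2 with values as deposited, 138 without the dimmest 30% of genes, 251 with a pseudocount of 50 and 260 with an intensity trend. It was 0 with median centring, with each probe as its own row and with the replicate block, where 2247, 3101 and 1878 had an unadjusted limma p under 0.05, and 0 without each sample in turn. Members called numbered 2, and 1 (EGR1) with values as deposited, 3 with the filter, the pseudocount or the trend (EGR1, FOS and JUNB), and 0 in the settings with 0 calls. List genes called numbered 0, and 11 with the filter and 14 with the pseudocount or the trend. The members' median difference was 0.53, and 0.34 with median centring, 0.24 with the filter, which removed EGR2, 0.25 with a pseudocount of 50, and 0.30 to 0.48 without each sample in turn. EGR1, EGR3, FOS, FOSB, FOSL1, FOSL2 and JUNB kept their sign in all 12 alternatives and EGR2 in the 11 that kept it, while JUN changed sign in 4 and JUND in 2. Samples with the same replicate number share only a number in the labels. Their deviations from the group means correlated at 0.09 over all genes and 0.181 over the brighter 8889. Probes dim against the olfactory receptor range limit EGR2, EGR3, FOS, FOSB and JUNB.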
